A study of Mus musculus with 10 samples.

Results

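The genes described here carry the glutamate signal of ON bipolar cells, the retinal interneurons that depolarize when light turns on. They are Grm6, Trpm1, Gpr179, Prkca, Pcp2, Cabp5, Rgs11 and Gnao1, and every peak that the deposited table assigns to one of these 8 symbols was taken, at promoters and elsewhere. Of 108253 peaks, 94 were members, and they covered 7 of the 8 genes, among 25400 gene symbols with a peak. Prkca held 53 of them, Gnao1 16, Trpm1 11, Gpr179 5, Grm6 4, Cabp5 3 and Rgs11 2, whereas Pcp2 held 0. Retinas of wild-type C57Bl/6J mice at postnatal day 28 were freed of sclera and retinal pigment epithelium and cultured whole for 48 hours in Neurobasal-A medium with 5 mM or 25 mM glucose. All groups shared this genotype, age and medium, and the labels do not say how many retinas or mice entered a library. CUT&Tag, in which an antibody guides a transposase to a modified histone, was carried out for lactylation of histone H3 at lysine 18 (H3K18La, 3 libraries per glucose level) and for acetylation at lysine 27 (H3K27Ac, 2 libraries per glucose level).

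In darkness, photoreceptors release glutamate onto the metabotropic receptor mGluR6 (Grm6) of ON bipolar dendrites, which acts through the G protein subunit Gαo (Gnao1) to keep the cation channel TRPM1 closed. Light lowers glutamate, the regulator RGS11, held at the dendritic tip by the orphan receptor GPR179, speeds the shutdown of Gαo, and TRPM1 opens. Protein kinase C alpha (Prkca) and PCP2 mark rod bipolar cells and CABP5 is a calcium-binding protein of bipolar cells, while Gnao1 and Prkca are also used by other neurons. H3K27Ac marks active promoters and enhancers, and H3K18La is a modification whose supply is tied to lactate.

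The promoters of 4 genes with a member peak at their start, and the strongest member peak, are shown because the glucose change is described at them below. The promoter stretches are the RefSeq bases just before the transcription start, on the strand of the gene and without bases that GENCODE places in an exon, and the Prkca stretch is the central 300 bases of the peak on the plus strand, all in GRCm38.p6. Capitals mark TAATCC (the core bound by the photoreceptor and bipolar factors CRX and OTX2), TAATTA (bound by VSX and other homeodomain factors) and GGGCGG (the GC box bound by SP and KLF factors), on either strand.
Grm6 promoter, chr11:50850435-50850684, plus strand: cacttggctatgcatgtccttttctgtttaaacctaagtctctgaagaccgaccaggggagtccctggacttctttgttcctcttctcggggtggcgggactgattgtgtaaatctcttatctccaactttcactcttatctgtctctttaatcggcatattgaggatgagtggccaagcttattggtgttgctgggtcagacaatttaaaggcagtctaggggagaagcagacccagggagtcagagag
Trpm1 promoter, chr7:64153585-64153834, plus strand: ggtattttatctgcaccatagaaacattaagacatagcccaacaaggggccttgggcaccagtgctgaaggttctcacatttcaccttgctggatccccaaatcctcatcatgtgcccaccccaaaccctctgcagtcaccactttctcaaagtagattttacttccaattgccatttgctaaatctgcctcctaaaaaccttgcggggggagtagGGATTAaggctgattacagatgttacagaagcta
Gpr179 promoter, chr11:97352357-97352606, minus strand: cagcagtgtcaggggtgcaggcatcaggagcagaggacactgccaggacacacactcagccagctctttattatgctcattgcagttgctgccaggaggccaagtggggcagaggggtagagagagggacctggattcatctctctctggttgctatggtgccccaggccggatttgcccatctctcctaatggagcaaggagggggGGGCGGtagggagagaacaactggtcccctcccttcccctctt
Cabp5 promoter, chr7:13397905-13398131, plus strand: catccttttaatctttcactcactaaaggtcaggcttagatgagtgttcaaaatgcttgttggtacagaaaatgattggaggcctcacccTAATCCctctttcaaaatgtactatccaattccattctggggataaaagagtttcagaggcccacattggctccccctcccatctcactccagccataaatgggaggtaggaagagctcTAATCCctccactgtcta
Prkca intron, chr11:108298123-108298422, plus strand: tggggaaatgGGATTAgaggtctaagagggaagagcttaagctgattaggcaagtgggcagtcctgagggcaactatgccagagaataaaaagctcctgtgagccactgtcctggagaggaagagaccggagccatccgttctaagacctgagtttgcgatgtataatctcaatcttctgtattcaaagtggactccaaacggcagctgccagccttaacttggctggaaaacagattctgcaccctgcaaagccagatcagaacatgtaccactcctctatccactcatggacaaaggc

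Within the 250 bases before the start, TAATCC occurred in 6.3% of 32851 RefSeq promoters, TAATTA in 4.8% and GGGCGG in 32.7%. Cabp5 held 2 matches to TAATCC, the Trpm1 promoter 1 and the Gpr179 promoter 1 match to GGGCGG, while the Grm6 promoter held no match to these 3 motifs. Over the central 300 bases of peaks at least that wide, TAATCC was present in 17 of 94 member peaks (18.1%) and in 11.5% of 105506 peaks. For GGGCGG the shares were 7 of 94 (7.4%) and 12.0%, and none of the 53 Prkca peaks held it, against 5.6% of non-promoter peaks. Among promoter peaks the order was the other way, with GGGCGG in 4 of 7 members (57.1%) beside 44.9% of all 17044. Matches are given as a description of the sequence. GC content was 47.6% in the Grm6 stretch, 46.0% in that of Trpm1, 44.5% in that of Cabp5 and 58.8% in that of Gpr179, beside a median of 52.4% over the RefSeq promoters.

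Values are RPKM, the reads of a peak scaled to its length in kilobases and to the depth of the library. Libraries had denominators of 1358008 to 7424470 reads, of which 199 to 5258 lay in member peaks, and 1 read in a peak of 1 kb was worth 0.135 to 0.736 RPKM. Peaks took 11.8% to 12.0% of the H3K18La reads at 5 mM and 31.2% to 35.0% at 25 mM. For H3K27Ac the shares were 21.1% and 31.5% at 5 mM, and 69.5% and 56.5% at 25 mM. These shares, and the scaling to reads in peaks used below, hold only if the denominators are plain read totals, which the sources used here do not say. This share moved with glucose in both marks, and all tested peaks together had a median log2 fold change of 1.10 for H3K18La and 0.84 for H3K27Ac, so the members' values are set beside these medians. Peaks with a mean of at least 1 RPKM in the mark were tested with limma on log2(RPKM + 0.5), and p-values were adjusted over all of them by the Benjamini-Hochberg method. Peaks are numbered within a gene by coordinate. A fold change on this scale understates that of weak peaks. In whole retina, fewer cells of a type and less of a mark per cell cannot be told apart.

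Of 7 promoter peaks, 5 rose in H3K27Ac at 25 mM, beside 33.9% of all peaks tested in that mark and 57.0% of the promoter peaks among them. Of the 7, 4 (Grm6, Trpm1 peak 5, Rgs11 and Cabp5) had 5 mM means under the minimum and were tested through the 25 mM libraries. All 4 were called, and of the 3 at or over the minimum at 5 mM, 1 was called. In H3K18La the 7 promoter peaks held 0 to 12 reads per library. The Grm6 promoter peak (peak 2, chr11:50850368-50851839) had H3K27Ac values of 0.471 and 1.31 RPKM at 5 mM and 5.38 and 3.48 RPKM at 25 mM, from 3, 12, 57 and 38 reads. Its H3K18La values were 0.644, 0.393 and 0.50 RPKM at 5 mM and 0.346, 0.501 and 0.229 RPKM at 25 mM, from 1 to 3 reads each. Both 25 mM libraries lay above both 5 mM libraries in H3K27Ac, whereas the H3K18La groups overlapped. The H3K27Ac log2 fold change was 1.87 ± 0.43 (SE), with an adjusted p of 7.92e-04 in limma. The peak overlaps an antisense gene, Gm12660, and the assay cannot assign the mark to a strand.

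The channel gene Trpm1 had 2 promoter peaks that differed. Over its start (peak 5, chr7:64153438-64154374), H3K27Ac was 0.740 and 1.03 RPKM at 5 mM and 11.4 and 7.19 RPKM at 25 mM. H3K18La there was 1.01, 1.03 and 0 RPKM at 5 mM and 1.63, 0.787 and 1.08 RPKM at 25 mM. The H3K27Ac groups did not overlap, with a log2 fold change of 2.80 ± 0.42 (SE) and an adjusted p of 1.09e-07 in limma, which was the highest fold change among the member peaks in this mark, and the H3K18La groups overlapped. The other peak (peak 8, chr7:64184339-64186208) covers the start of a retained-intron transcript inside the gene. There H3K27Ac was 0.989 and 1.55 RPKM at 5 mM and 0.966 and 1.94 RPKM at 25 mM, so the groups overlapped. Its log2 fold change was 0.12, with a 95% interval from -0.86 to 1.10 (adjusted p = 0.869, limma).

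The scaffold and regulator genes of the complex showed the same order of groups. The Gpr179 promoter peak (peak 4, chr11:97352261-97352643) had the highest H3K27Ac of the 7 at 25 mM, with 2.42 and 3.78 RPKM at 5 mM and 26.1 and 13.7 RPKM at 25 mM. Its log2 fold change was 2.46 ± 0.48 (SE; adjusted p = 6.07e-05, limma). H3K18La values there were 1.24, 0.504 and 0 RPKM at 5 mM and 2.66, 2.57 and 1.76 RPKM at 25 mM, from at most 4 reads. The H3K18La groups did not overlap, like those of 55.8% of all promoter peaks tested in that mark, and the log2 fold change of 1.55 missed the threshold at an adjusted p of 0.0508 in limma, with a 5 mM mean of 0.581 RPKM under the minimum. At the Rgs11 promoter peak (peak 1, chr17:26202412-26203753), H3K27Ac was 0.517 and 1.08 RPKM at 5 mM and 3.42 and 2.61 RPKM at 25 mM. That difference also passed, at a log2 fold change of 1.46 ± 0.46 (SE; adjusted p = 0.0106, limma), with a 5 mM mean under the minimum. The peak reaches into the neighbouring gene Arhgdig. Its H3K18La values, 0 to 0.719 RPKM at 5 mM and 0.754 to 1.65 RPKM at 25 mM, were below the minimum for a test.

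Cabp5 and Gnao1 had the smaller changes among the genes' main promoters. The Cabp5 promoter peak (peak 1, chr7:13397582-13398679) had H3K27Ac of 0.632 and 1.03 RPKM at 5 mM and 4.81 and 1.59 RPKM at 25 mM. The log2 fold change was 1.34 ± 0.46 (SE; adjusted p = 0.0181, limma), and its 25 mM libraries lay far apart. Its H3K18La was 0, 0.703 and 0 RPKM at 5 mM and 0, 0.448 and 1.23 RPKM at 25 mM, from at most 4 reads, with overlapping groups. The Gnao1 promoter peak (peak 1, chr8:93809854-93811388) had H3K27Ac of 2.26 and 3.99 RPKM at 5 mM and 9.96 and 3.51 RPKM at 25 mM. These groups overlapped, and the log2 fold change of 0.88 did not pass (adjusted p = 0.0987, limma). H3K18La at the Gnao1 promoter was 1.24, 1.26 and 1.44 RPKM at 5 mM and 1.33, 1.28 and 2.64 RPKM at 25 mM, again overlapping, with a log2 fold change of 0.26 (95% interval -0.70 to 1.22, adjusted p = 0.641, limma).

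**Figure D1:**
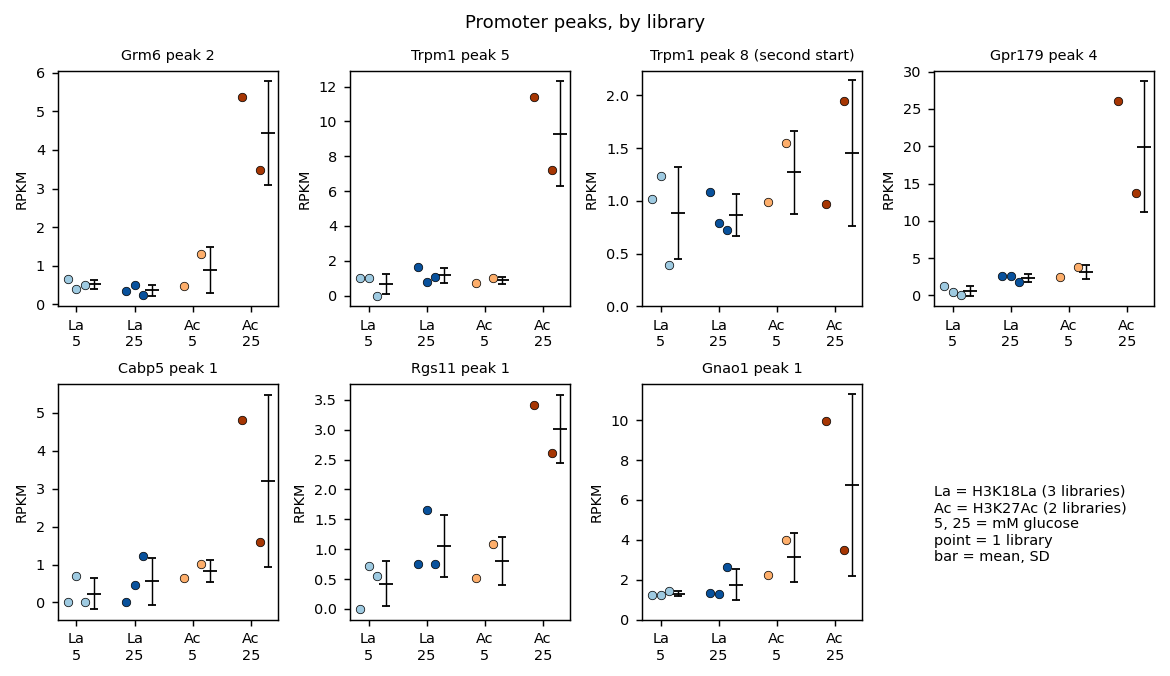
RPKM (vertical axis, a scale of its own in each panel) of the 7 promoter peaks in each library, with H3K18La (La, n = 3) and H3K27Ac (Ac, n = 2) at 5 and 25 mM glucose, and the mean with SD beside the points. In 5 panels both H3K27Ac libraries at 25 mM lie above both at 5 mM, as they do in 85.6% of all promoter peaks tested. The exceptions are Gnao1 and Trpm1 peak 8 over the second start.

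The 7 promoter peaks had a median H3K27Ac log2 fold change of 1.46, beside 1.22 over the 15143 promoter peaks tested in the whole table. In H3K18La, 2 of the 7 reached the minimum for a test and 0 passed, with 1 at an unadjusted p under 0.05, beside 33.3% of all 12217 promoter peaks tested that rose and 46.9% at an unadjusted p under 0.05. The H3K27Ac result at Grm6, Trpm1 and Gpr179 kept its sign after scaling libraries to their reads in peaks, with log2 fold changes of 0.93, 1.79 and 1.29, but none passed then (adjusted p = 0.274, 0.120 and 0.129, limma). Where each library was centred on the median of all peaks, the Trpm1 and Gpr179 promoters passed (adjusted p = 0.0427 and 0.0428, limma), and that of Grm6 did not (adjusted p = 0.0891). Without the first library at 25 mM none of the 7 passed, and without the second at 25 mM those of Grm6, Trpm1 and Gpr179 did (adjusted p = 0.0487, 7.28e-04 and 0.0231, limma) while those of Cabp5 and Rgs11 did not (adjusted p = 0.0679 and 0.145). Cabp5 and Rgs11 also lost their calls without the first library at 5 mM (adjusted p = 0.0631 and 0.0555). The promoter peaks of Grm6, Trpm1 (peak 5), Rgs11 and Cabp5 had H3K27Ac means at 5 mM under the minimum of 1 RPKM (0.892, 0.886, 0.798 and 0.829 RPKM) and reached it through the 25 mM libraries, so these 4 were tested because they were high at 25 mM. With no minimum, none of the 7 passed, at adjusted p of 0.125 for Grm6, Trpm1 peak 5, Gpr179 and Rgs11 and of 0.200 for Cabp5 (limma). That loss was not particular to them, since 0 of all 108253 H3K27Ac peaks passed in that fit, in which limma's prior degrees of freedom were finite and not infinite as with the minimum, and Gpr179, with both 5 mM libraries above the minimum, lost its call as well.

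Over all 94 member peaks, most called changes lay in Prkca. For H3K18La, 69 peaks were tested, 34 rose and 0 fell at 25 mM (49.3%), beside 37.3% of all peaks tested that rose. The members' median log2 fold change was 1.38, against 1.10 for the whole table. Prkca supplied 29 of these 34, from 49 tested, and among the other genes 5 of 20 rose (25.0%): 2 in Trpm1, 2 in Gnao1 and 1 in Gpr179. For H3K27Ac, 90 peaks were tested, 38 rose and 0 fell (42.2%), beside 33.9% of all peaks tested that rose, with a members' median of 1.01 against 0.84. Here 17 of 37 peaks rose in the other genes and 21 of 53 in Prkca, and all 4 Grm6 peaks, 6 of 10 in Trpm1 and 4 of 5 in Gpr179 rose, whereas in Gnao1 1 of 15 did, and in Rgs11 1 of 2 and in Cabp5 1 of 1. Some peaks reached the minimum through the 25 mM libraries, with a mean under 1 RPKM at 5 mM, and so could be tested only because they were higher at 25 mM. These were 21 of the 69 in H3K18La (5 of them called) and 12 of the 90 in H3K27Ac (6 called), beside 32.0% and 12.2% of all peaks tested. All counts fell when libraries were rescaled. With each library centred on the median of all peaks, 1 member peak passed in H3K18La and 3 in H3K27Ac, beside 1.54% and 1.44% of all peaks. With each library scaled to its reads in peaks, 0 member peaks passed in either mark, and so did 0 of all peaks, with 7572 peaks at an unadjusted p under 0.05 for H3K18La and 12491 for H3K27Ac. The H3K27Ac count also rests on 2 libraries per level, with a spread that limma took from the trend over all peaks. The count was 0 without the first 25 mM library, 5 without the second, 22 without the first 5 mM library and 61 without the second, beside 0.0138%, 1.29%, 22.5% and 53% of all peaks. With all 108253 peaks tested it was 0, as it was over the whole table.

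Taken over all its peaks, each gene received 1 value per library, the mean RPKM weighted by peak width. Of 7 genes with a peak, 6 rose in H3K27Ac, beside 62.2% of 17544 gene loci tested that rose. In H3K18La all 4 tested genes rose (Trpm1, Gpr179, Prkca and Gnao1), beside 57.0% of 14877 loci, and 3 were too weak for a test. Trpm1, Gpr179 and Gnao1 in H3K18La (5 mM means of 0.916, 0.800 and 0.865 RPKM) and Cabp5 in H3K27Ac (0.523 RPKM) reached the minimum of 1 RPKM through the 25 mM libraries, like 40.2% of all loci tested in H3K18La and 9.4% in H3K27Ac, so their being tested rests on the high values at 25 mM. All 6 H3K27Ac calls were lost when libraries were centred on the median of all loci, when they were scaled to reads in peaks, and with no minimum, where 0.906%, 0% and 0% of all loci passed. All 6 held when libraries were centred on the weakest decile of the tested loci (46.1% of all loci). The 4 H3K18La calls became 0 under those 2 scalings, 1 on the weakest decile and 3 with no minimum, beside 8.81%, 0%, 21.7% and 29.9% of all loci. Grm6 had locus values in H3K27Ac of 1.39 and 2.08 RPKM at 5 mM and 7.42 and 5.10 RPKM at 25 mM, and in H3K18La of 1.20, 0.914 and 0.698 RPKM at 5 mM and 1.12, 1.32 and 0.745 RPKM at 25 mM. The H3K27Ac groups did not overlap (log2 fold change 1.59 ± 0.36 SE, adjusted p = 3.07e-04, limma), and the H3K18La groups did.

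Trpm1 and Gpr179 passed in both marks at this scale, in H3K18La through the 25 mM libraries as given above. For Trpm1, H3K27Ac was 1.40 and 1.43 RPKM at 5 mM and 5.52 and 3.64 RPKM at 25 mM (log2 fold change 1.38 ± 0.34 SE, adjusted p = 7.65e-04, limma). Its H3K18La was 0.817, 0.997 and 0.935 RPKM at 5 mM and 2.58, 1.83 and 1.77 RPKM at 25 mM (log2 fold change 0.84 ± 0.22 SE, adjusted p = 0.0140, limma). Both marks thus had every library at 25 mM above every library at 5 mM. The H3K18La change of Trpm1 was under the median of all loci tested in that mark (0.97). For Gpr179, H3K27Ac was 1.74 and 2.20 RPKM at 5 mM and 6.79 and 4.99 RPKM at 25 mM (log2 fold change 1.36 ± 0.36 SE, adjusted p = 1.80e-03, limma). Gpr179 H3K18La was 1.06, 0.589 and 0.749 RPKM at 5 mM and 2.28, 2.60 and 2.40 RPKM at 25 mM (log2 fold change 1.19 ± 0.22 SE, adjusted p = 3.32e-03, limma).

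Among the remaining genes, Prkca had the highest locus level in every group. Its H3K18La was 2.01, 1.90 and 1.96 RPKM at 5 mM and 5.89, 6.19 and 6.54 RPKM at 25 mM, and the log2 fold change was 1.45 ± 0.13 (SE; adjusted p = 2.45e-04, limma), with a spread between replicates far smaller than the change. Its H3K27Ac was 2.94 and 4.75 RPKM at 5 mM and 9.08 and 8.66 RPKM at 25 mM (log2 fold change 1.14 ± 0.44 SE, adjusted p = 0.0202, limma). Gnao1 rose in H3K18La, from 0.685, 1.09 and 0.822 RPKM to 1.54, 1.60 and 1.97 RPKM, with a log2 fold change of 0.69 that was under the median of all loci (0.97). It lost its call (adjusted p = 0.0384, limma) in each of the 6 fits that left out 1 library, with adjusted p from 0.0562 to 0.119, and with no minimum (adjusted p = 0.0505). Gnao1 H3K27Ac was 1.90 and 2.38 RPKM at 5 mM and 4.23 and 2.97 RPKM at 25 mM, and the log2 fold change of 0.63 did not pass (adjusted p = 0.0928, limma).

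Rgs11 and Cabp5 were the weakest loci. Rgs11 H3K27Ac was 1.40 and 0.972 RPKM at 5 mM and 3.57 and 2.58 RPKM at 25 mM (adjusted p = 4.80e-03, limma), and Cabp5 H3K27Ac was 0.464 and 0.582 RPKM against 2.85 and 1.30 RPKM (adjusted p = 2.63e-03, limma). With no minimum, their adjusted p were 0.0671 and 0.0677. Their H3K18La groups overlapped, at 0.239 to 0.777 RPKM against 0.679 to 1.36 RPKM for Rgs11 and 0.380 to 0.591 RPKM against 0.204 to 1.28 RPKM for Cabp5, from 1 to 13 reads per library. Without the first H3K27Ac library at 25 mM, 0 of the 7 loci passed in that mark (adjusted p from 0.231 for Grm6 to 0.509 for Gnao1), although each log2 fold change among the 6 called genes remained at 0.82 or more. Without the first H3K27Ac library at 5 mM the Prkca locus lost its call (adjusted p = 0.113), and likewise without the second at 25 mM (adjusted p = 0.152). When libraries were scaled to reads in peaks, the H3K27Ac log2 fold change was 0.51 for Grm6, 0.32 for Trpm1, 0.26 for Gpr179 and -0.03 for Prkca, and that of Trpm1 in H3K18La was -0.22.

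**Figure D2:**
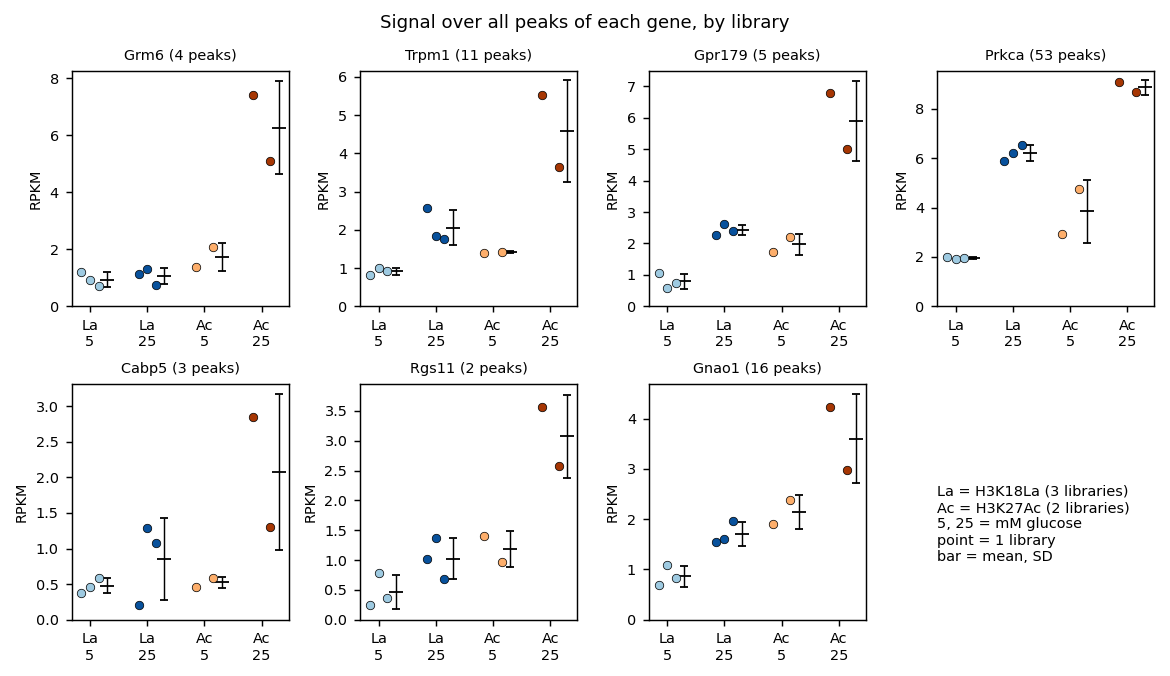
RPKM over all peaks of each gene, weighted by peak width (vertical axis, a scale of its own in each panel), in each library of H3K18La (La, n = 3) and H3K27Ac (Ac, n = 2) at 5 and 25 mM glucose, with mean and SD. Every gene shown separates the glucose levels in H3K27Ac. In H3K18La, Grm6, Rgs11 and Cabp5 overlap, and Trpm1, Gpr179, Prkca and Gnao1 separate. The share of all loci that separate was not computed.

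Levels differed between genes as well. In H3K27Ac at 25 mM the loci ranked Prkca (8.87 RPKM ± 0.304, SD, n = 2), Grm6 (6.26 ± 1.64), Gpr179 (5.89 ± 1.27), Trpm1 (4.58 ± 1.33), Gnao1 (3.60 ± 0.893), Rgs11 (3.07 ± 0.702) and Cabp5 (2.07 ± 1.09). Each step below Grm6 was smaller than the larger SD of the 2 genes it separates. At 5 mM the order was Prkca (3.85 ± 1.28), Gnao1 (2.14 ± 0.340), Gpr179 (1.97 ± 0.321), Grm6 (1.74 ± 0.493), Trpm1 (1.42 ± 0.0183), Rgs11 (1.18 ± 0.300) and Cabp5 (0.523 ± 0.0831). There the first and the last step exceeded the SDs of both neighbours, and the others did not exceed the larger SD. In H3K18La at 25 mM, Prkca (6.21 RPKM ± 0.325, SD, n = 3) was followed by Gpr179 (2.43 ± 0.164), Trpm1 (2.06 ± 0.452), Gnao1 (1.70 ± 0.234), Grm6 (1.06 ± 0.292), Rgs11 (1.02 ± 0.341) and Cabp5 (0.857 ± 0.574). Among these, the steps from Prkca to Gpr179 and from Gnao1 to Grm6 exceeded the SDs of both neighbours. At 5 mM, Prkca stood at 1.96 RPKM ± 0.0580 in H3K18La and the other 6 genes between 0.462 RPKM (Rgs11) and 0.936 RPKM (Grm6). The widest step among those 6, from Gpr179 (0.800 ± 0.240) to Cabp5 (0.479 ± 0.106), exceeded both SDs, and the other steps did not. At 25 mM Grm6 was thus the second in H3K27Ac and the fifth in H3K18La. Against all gene loci, Grm6 lay at percentile 67.1 in H3K27Ac and 35.9 in H3K18La at 25 mM, and Prkca at 75.3 and 93.4.

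Prkca, the kinase used to mark rod bipolar cells, had no peak annotated as its own promoter. The peak over its start (chr11:108342676-108344439) is assigned in the table to the neighbouring gene Apoh and so is not a member. That peak had H3K27Ac of 4.98 and 5.75 RPKM at 5 mM and 28.8 and 14.0 RPKM at 25 mM, and H3K18La of 2.96, 1.31 and 3.76 RPKM at 5 mM and 9.23, 4.74 and 7.84 RPKM at 25 mM. Neither mark's groups overlapped there. The 53 Prkca members were all intronic and spread from 1585 to 392482 bp downstream of the start. Intron 2 held 30 of them, 58.9% of the covered length, and 80.0% of the H3K18La signal and 79.2% of the H3K27Ac signal (RPKM times width) at 25 mM, against 70.5% and 74.1% at 5 mM.

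In intron 2, 24 of 30 tested peaks rose in H3K18La and 18 of 30 in H3K27Ac, while in intron 3 these counts were 1 of 12 and 2 of 13, beside 38.2% and 27.8% of all non-promoter peaks tested that rose in the marks. They were 3 of 3 and 0 of 3 in intron 5, and 1 of 1 in each mark in intron 1. No tested peak of introns 8, 11, 13 or 16 rose in either mark. The difference between the introns was not tested. The strongest of all member peaks over the 10 libraries lay in intron 2, 45259 bp downstream of the start (peak 44, chr11:108297878-108298669, the Prkca sequence above). Its H3K18La was 5.39, 7.55 and 6.51 RPKM at 5 mM and 33.4, 25.2 and 22.1 RPKM at 25 mM, and it stood at percentile 99.8 of all peaks at 25 mM. Its H3K27Ac was 11.7 and 19.3 RPKM at 5 mM and 56.9 and 42.7 RPKM at 25 mM. Groups did not overlap in either mark, with log2 fold changes of 1.96 ± 0.22 (SE; adjusted p = 3.58e-04, limma) in H3K18La and 1.68 ± 0.54 (SE; adjusted p = 0.0123, limma) in H3K27Ac. The H3K27Ac call was lost when either 25 mM library was left out (adjusted p = 0.440 and 0.239, limma), whereas the H3K18La call held without any 1 library. The next strongest peak, singled out after its values were seen, lay 9469 bp downstream of the start (peak 51, chr11:108334049-108334459) and had H3K18La of 3.46, 2.82 and 5.37 RPKM against 18.6, 14.4 and 22.1 RPKM (log2 fold change 2.13 ± 0.29 SE, adjusted p = 5.60e-04, limma). Its H3K27Ac was 9.57 and 18.4 RPKM against 27.7 and 29.2 RPKM, a log2 fold change of 1.07 that did not pass (adjusted p = 0.0949, limma).

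The highest H3K18La fold change among the members was also in intron 2, at a peak 150078 bp downstream of the start (peak 23, chr11:108193055-108193850), which overlaps the antisense gene Gm11655. H3K18La there was 1.19, 0.970 and 0 RPKM at 5 mM and 8.31, 6.80 and 7.20 RPKM at 25 mM, and the log2 fold change was 2.88 ± 0.48 (SE; adjusted p = 1.38e-03, limma). Its 5 mM mean of 0.720 RPKM was under the minimum, so it too was tested through the 25 mM libraries, and with no minimum it passed at an adjusted p of 0.0117. H3K27Ac was 2.61 and 5.26 RPKM against 6.99 and 5.58 RPKM, which did not pass (log2 fold change 0.67, adjusted p = 0.222, limma). The other peaks named for a high H3K18La change were one in intron 5 of Prkca (peak 8, chr11:108030818-108031612), with 1.79, 3.16 and 0 RPKM against 6.40, 5.88 and 8.91 RPKM (adjusted p = 0.0168), and one in intron 3 of Gnao1 (peak 11, chr8:93903349-93903704), with 0, 0.542 and 0 RPKM against 4.29, 0.691 and 3.79 RPKM (adjusted p = 0.0331). The Gnao1 peak, with a 5 mM mean of 0.181 RPKM, reached the minimum through the 25 mM libraries, and with no minimum neither call held (adjusted p = 0.0799 in Prkca and 0.0781 in Gnao1). The Gnao1 values rest on 1 read at 5 mM and 8 reads at 25 mM. At the other end, 2 Prkca peaks of intron 3 and 1 Grm6 peak had H3K18La log2 fold changes below 0, from -0.48 to -0.09, with overlapping groups. One of these Prkca peaks (peak 13, chr11:108130251-108130733) was called in H3K27Ac (adjusted p = 9.35e-03, limma) although its values of 0 and 3.33 RPKM at 5 mM and 3.45 and 3.07 RPKM at 25 mM overlapped, and without the first library at 5 mM its log2 fold change was -0.03. The lowest H3K27Ac change in Prkca was in the same intron (peak 12, chr11:108119227-108119659), with 2.14 and 1.12 RPKM against 0.963 and 0.933 RPKM (log2 fold change -0.51, adjusted p = 0.437, limma). The H3K18La call in intron 5 of Prkca was lost without the first or the third library at 25 mM (adjusted p = 0.0530 and 0.0620, limma), and that in Gnao1 without the first at 5 mM (0.0563) and without the first or the third at 25 mM (0.126 and 0.141).

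**Figure D3:**
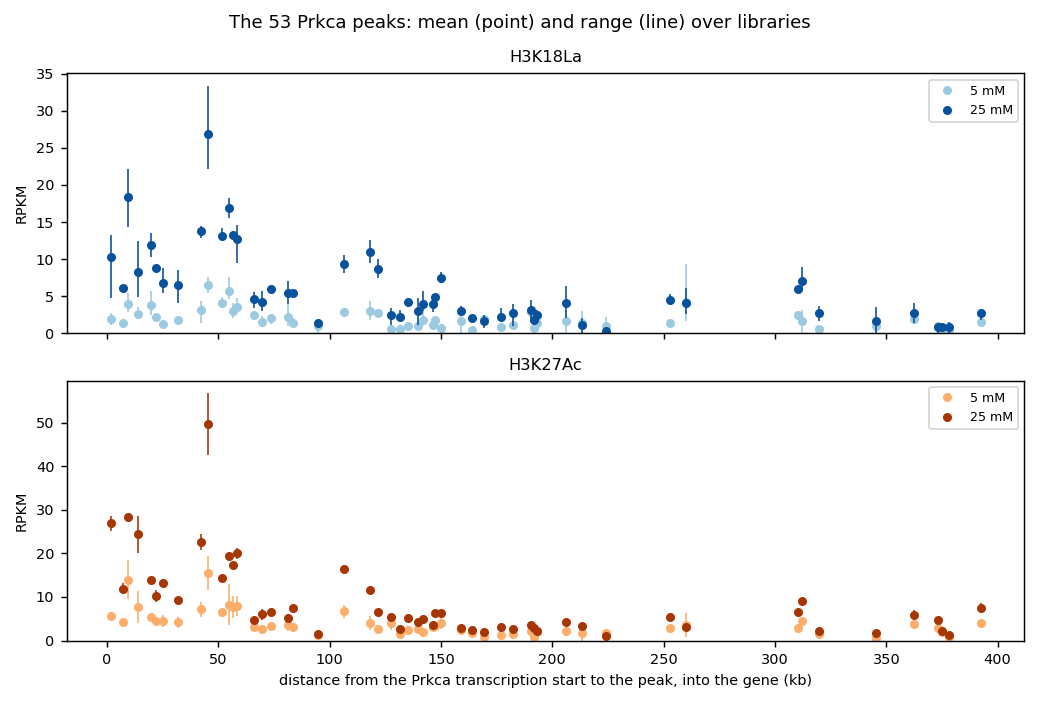
RPKM (vertical axis) of the 53 Prkca peaks against their distance from the transcription start into the gene in kb (horizontal axis), for H3K18La (top) and H3K27Ac (bottom), with the mean of the libraries as a point and their range as a line. The peak 45259 bp from the start is the highest in both marks, at means of 26.9 and 49.8 RPKM at 25 mM.

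Outside Prkca, peaks around the receptor and channel genes varied. Upstream of Grm6, the strongest non-promoter peak (peak 1, chr11:50848059-50848725, upstream of the gene) had H3K27Ac of 4.16 and 3.14 RPKM at 5 mM and 12.1 and 9.49 RPKM at 25 mM (log2 fold change 1.45 ± 0.46 SE, adjusted p = 0.0117, limma). This call was lost in a fit with the replicate number as a block (adjusted p = 0.0671, limma). The log2 fold change was 1.28 without the first 25 mM library and 1.61 without the second. H3K18La at this peak was 2.13, 0.868 and 2.21 RPKM against 3.81, 2.95 and 2.53 RPKM, which did not overlap, as at 53.4% of all peaks tested in H3K18La, and did not pass (adjusted p = 0.173, limma). In intron 1 of Grm6 (peak 3, chr11:50852679-50853168), H3K27Ac rose from 1.42 and 2.30 RPKM to 9.08 and 5.77 RPKM (adjusted p = 1.55e-03, limma), while H3K18La was 2.90, 2.36 and 0 RPKM at 5 mM and 0, 2.51 and 0.688 RPKM at 25 mM. At these Grm6 peaks H3K27Ac was higher in both 25 mM libraries, as at 69.3% of all peaks tested in this mark. Upstream of Trpm1 (peak 1, chr7:64139752-64140538), H3K27Ac rose from 1.47 and 0.818 RPKM to 10.4 and 4.79 RPKM (log2 fold change 2.24 ± 0.42 SE, adjusted p = 3.58e-05, limma), and H3K18La was 1.81, 0.736 and 1.87 RPKM against 2.59, 1.88 and 1.29 RPKM, with overlapping groups.

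Inside Trpm1, a peak of 2438 bp in intron 1 (peak 7, chr7:64163213-64165650) rose in both marks. Its H3K18La went from 0.972, 1.58 and 3.02 RPKM to 4.80, 3.83 and 4.56 RPKM (adjusted p = 0.0438, limma) and its H3K27Ac from 2.47 and 1.98 RPKM to 8.44 and 5.30 RPKM (adjusted p = 8.93e-03, limma). The H3K18La call was lost in 5 of the 6 fits that left out 1 library, with adjusted p from 0.0890 to 0.116, and kept without the third library at 5 mM (adjusted p = 0.0116). The H3K27Ac log2 fold change of this peak, 1.41, was 1.10 without the first 25 mM library and 1.72 without the second. Those fits leave 1 library at 25 mM. At the far end, in intron 26 (peak 11, chr7:64250326-64250790), H3K27Ac was 0.995 and 1.73 RPKM at 5 mM and 0.897 and 0.579 RPKM at 25 mM, from 2 to 5 reads. That peak had the lowest H3K27Ac change of the members, a log2 fold change of -0.57 (95% interval -1.70 to 0.56, adjusted p = 0.434, limma). In intron 1 of Gpr179 (peak 3, chr11:97349824-97350581), H3K27Ac was 4.27 and 3.40 RPKM against 7.70 and 4.44 RPKM (adjusted p = 0.311) and H3K18La 1.25, 0.764 and 0 RPKM against 3.36, 1.95 and 1.78 RPKM (adjusted p = 0.0693).

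Of the peaks given next, those that were tested did not pass in either mark. Near the Gnao1 start, an exonic peak (peak 2, chr8:93813282-93813623) had H3K27Ac of 8.79 and 7.06 RPKM at 5 mM and 16.3 and 11.8 RPKM at 25 mM (log2 fold change 0.78, adjusted p = 0.200, limma). Its H3K18La was 0, 2.26 and 0 RPKM against 0, 1.44 and 2.96 RPKM. That peak and the Gnao1 promoter overlap the antisense gene 4930488L21Rik. In intron 3 of Gnao1 (peak 10, chr8:93901291-93902325), H3K27Ac was 2.23 and 4.67 RPKM against 1.61 and 2.86 RPKM, with overlapping groups and a log2 fold change of -0.50 (adjusted p = 0.345, limma). In the 3′ untranslated regions, the Rgs11 peak (peak 2, chr17:26210447-26211091) had H3K27Ac of 3.23 and 0.749 RPKM against 3.88 and 2.51 RPKM (adjusted p = 0.147, limma), and the Cabp5 peak (peak 3, chr7:13407831-13408716) had 0.261 and 0.363 RPKM against 1.73 and 1.37 RPKM, under the minimum and not tested. Pcp2 (chr8:3623371-3625545) had no peak inside it or assigned to it. The nearest peaks lay 1296 bp beyond its 3′ end and 4930 bp before its start, with H3K27Ac means of 1.32 ± 0.139 (SD, n = 2) and 1.36 ± 0.245 RPKM at 5 mM and of 6.28 ± 1.84 and 4.47 ± 2.15 RPKM at 25 mM, given without a test.

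Whether the marks changed unequally was tested directly, as the H3K27Ac change minus the H3K18La change over all 10 libraries. None of 87 member peaks passed (percent of all 72467 peaks called: 0), with 4 members at an unadjusted p under 0.05, and 3650 of all peaks (5.04%), and this does not show that the marks changed alike. The median difference was -0.18 over the 87 members and -0.24 over all peaks. Of the 7 promoter peaks, all but those of Gpr179 and Gnao1 had a mean under 1 RPKM over the 8 libraries other than H3K27Ac at 25 mM and reached the minimum through that group, so the sign of their differences is not read here. For these peaks as a description, the difference was 2.11 (95% interval 0.43 to 3.79, adjusted p = 0.903, limma) at the Grm6 promoter and 2.16 (95% interval 0.50 to 3.83, adjusted p = 0.903) at the Trpm1 start. It was -2.21 (95% interval -3.74 to -0.67, adjusted p = 0.903, limma) at the Prkca peak with the highest H3K18La change. That peak was chosen for its H3K18La change, which is part of the difference, and its H3K18La mean at 5 mM was under the minimum. The sign of its difference is not read here either. For loci, 0 of 6 tested members passed (percent of all 17359 loci called: 0), with 1 member and 1239 of all loci at an unadjusted p under 0.05. That member was Grm6, whose difference was 1.47 (95% interval 0.57 to 2.38, adjusted p = 0.628, limma), and that of Prkca was -0.31 (95% interval -1.06 to 0.45). Of 68 peaks tested in both marks, 21 rose in both, 61.8% of the 34 called in H3K18La and 70.0% of the 30 called in H3K27Ac, and 18 of those 21 were in Prkca. Over all 57421 peaks tested in both marks, 12624 rose in both, 52.8% of those called in H3K18La and 59.0% of those called in H3K27Ac.

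**Figure D4:**
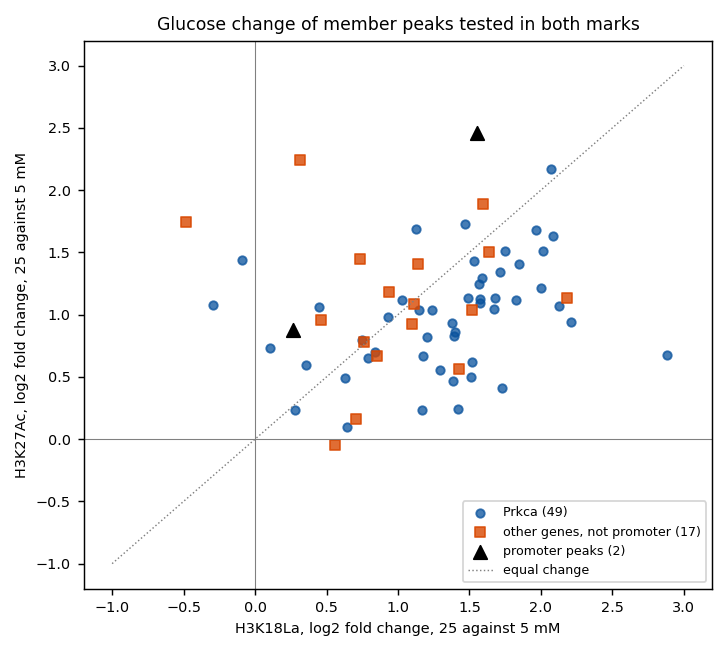
Log2 fold change from 5 to 25 mM in H3K18La (horizontal axis) and in H3K27Ac (vertical axis) of the 68 member peaks tested in both marks, with 49 in Prkca, 17 other non-promoter peaks and 2 promoter peaks. Points above the dotted line of equal change rose more in H3K27Ac. The promoter peaks of Gpr179 and Gnao1 lie above it, and the Prkca peak with the highest H3K18La change, 2.88, lies far below it. That Prkca peak was chosen for its H3K18La change, so its place is not read as a difference between marks.

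Other genes of the pathway were described by their loci. Of 12 listed, 11 had a peak (Rgs9bp had none). In H3K18La 8 of 9 tested rose, with a median log2 fold change of 1.74, and in H3K27Ac 10 of 11 rose, with a median of 1.25, beside medians over all loci of 0.97 and 1.01 and shares that rose of 57.0% and 62.2%. Rgs7 had 5 mM means under the minimum (0.679 RPKM in H3K18La and 0.890 RPKM in H3K27Ac) and was tested through the 25 mM libraries. It was called in H3K27Ac and not in H3K18La. Gnb3, the Gβ partner of Gαo in ON bipolar cells, had H3K27Ac of 2.67 and 4.47 RPKM at 5 mM and 41.2 and 17.7 RPKM at 25 mM, and Gng13, its Gγ partner, 2.03 and 3.84 RPKM against 22.4 and 10.9 RPKM. These were the highest fold changes of the list, at log2 values of 2.79 (adjusted p = 2.58e-06, limma) and 2.29 (adjusted p = 4.71e-05, limma). The lowest were Tpbg, with 1.93 and 1.12 RPKM against 2.96 and 1.56 RPKM (adjusted p = 0.231, limma), and Rgs7bp, with 1.01 and 2.11 RPKM against 3.99 and 2.02 RPKM (adjusted p = 0.0362, limma), whose groups overlapped. Gnb3 is also used by cones, so its locus is not particular to bipolar cells.

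Over the 10 libraries, the loci whose log2 values followed Grm6 most closely were Yif1a (Pearson r = 0.986), Tctn2 (0.984) and Dclre1a (0.983) among 13610 loci. For Trpm1 they were Cyth3 (0.987), Jdp2 (0.985) and Apba1 (0.985). These correlations share the libraries, the contrast of marks and the glucose levels, and are given as a description. The 7 member genes together went from 11.2 to 14.4 RPKM up to 29.2 to 39.5 RPKM in H3K27Ac and from 6.13 to 6.73 RPKM up to 14.6 to 16.2 RPKM in H3K18La. Of 7 bipolar transcription factors, all with a peak, 2 of 3 tested rose in H3K18La and 5 of 6 in H3K27Ac (medians 1.61 and 1.24), beside 57.0% and 62.2% of all loci. Markers of other retinal cells were read against the same shares of all loci. Of the rod photoreceptor markers, the loci of Gnat1, Nrl, Nr2e3, Pde6b, Sag, Cnga1 and Prph2 were tested, and all 7 rose in both marks, with median log2 fold changes of 1.98 in H3K18La and 1.84 in H3K27Ac beside 1.01 and 1.26 over the members' tested loci. Their summed H3K18La level was 10.2 to 12.2 RPKM at 5 mM and 42.4 to 82.0 RPKM at 25 mM, and their summed H3K27Ac level 38.6 to 66.0 RPKM and 175 to 272 RPKM. Müller glia loci rose in 3 of 5 tested for each mark, a share near that of all loci, with a summed H3K27Ac level of 12.8 to 14.1 RPKM at 5 mM and 25.1 to 30.5 RPKM at 25 mM, amacrine loci in 1 of 2 for each mark, and loci of the removed pigment epithelium in 2 of 3 for H3K18La and 1 of 3 for H3K27Ac. Of the 6 pigment epithelium markers 4 had a peak, and their summed level went from 3.56 to 5.52 RPKM up to 11.7 to 16.8 RPKM in H3K18La and from 3.67 to 6.93 RPKM up to 10.7 to 14.7 RPKM in H3K27Ac, most of it at Rgr (means of 10.9 and 9.58 RPKM at 25 mM), while Rpe65, with 1 peak of 316 bp, was at 0 RPKM in all 10 libraries. Among the called loci of these lists, 2 of the Müller glia, 1 of the rods and 1 of the pigment epithelium in H3K18La, and 2 of the transcription factors in H3K27Ac, had 5 mM means under the minimum. The part of cell composition in the members' changes was not tested.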

How the data were processed

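CUT&Tag peaks of cultured mouse retina were taken as 1 table of RPKM values, deposited for H3K18La (3 libraries per glucose level) and H3K27Ac (2 per level). Per the study's methods, the authors aligned reads to GRCm38 with nf-core/cutandrun, called peaks with MACS and kept those found in at least 2 replicates, counted reads with csaw, and annotated peaks with ChIPseeker 1.34.1 (promoter: -1000 to 500 bp around a start). Each deposited RPKM value is a read count over peak width and a library denominator, and 100% of values gave whole reads within 0.01 read. Whether csaw's normalization factors are part of the denominators is not given in the sources used here. The protocol text of the labels also names an antibody and an enzyme of another assay, so the mark was taken from the titles. A further deposited table holds the authors' own H3K18La fold changes, p-values and group means and was not used.

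Each mark was fitted alone with limma 3.58.1 in R 4.3.3 (lmFit and eBayes with a trend) on log2(RPKM + 0.5), over peaks, or gene loci, with a mean of at least 1 RPKM in that mark, and called at a Benjamini-Hochberg adjusted p of 0.05. The difference between marks was an interaction over all 10 libraries. All intervals are 95%. The labels do not tie replicates to separate animals, so p-values measure the spread between these libraries. A count of 0 allows up to 3 reads. Counting intervals were not used, and reads carry no molecular identifiers. The scripts were tested on simulated data, where the smaller planted fold was not called in H3K18La peaks or in the difference between marks and the larger one was called in part, so an absence of calls does not show equal change. The members and lists were chosen with earlier results of these data known. Peaks named are the promoter peaks, the strongest non-promoter peak of each gene, and the 3 highest and 3 lowest fold changes per mark. Alternatives covered the pseudocount, the minimum, library scaling, voom on recovered reads, a fit of all libraries, the replicate block and each library left out, and robust moderation, added after seeing the data. The loci most alike were ranked by Pearson's r over log2 values. The 8 genes were located in the GENCODE annotation of GRCm38, and promoter sequences came from RefSeq on GRCm38.p6, which held none for Rgs11. One listed marker gene is not reported here.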

Additional observations from a re-analysis of the deposited data

How the results depend on the processing

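Limits first: H3K27Ac had 2 libraries per level, most H3K18La promoter values rest on under 10 reads, and the glucose levels differed in the share of reads in peaks. Centring on the median of all features, scaling to reads in peaks and centring on the weakest decile of the tested features (peaks or loci) remove part or all of the shift shared by all peaks by construction. For the other alternatives the cause was not tested.

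The H3K18La count of 34 called member peaks became 1 under median centring, 0 scaled to reads in peaks and 15 centred on the weakest decile (1.54%, 0% and 12.7% of all peaks). It was 5 with Prkca peaks left out and 0 over promoter peaks only, and between 23 and 33 with 1 library left out. The median H3K18La log2 fold change of 1.38 became 0.47, 0.18 and 0.85 under those 3 scalings, 1.09 with no minimum, 1.60 with a pseudocount of 0.1, 1.06 with a pseudocount of 1 and 1.5 with voom, and lay between 1.20 and 1.39 with 1 library left out. The 4 called H3K18La loci became 0 under median centring, 0 scaled to reads in peaks and 1 centred on the weakest decile (8.81%, 0% and 21.7% of all loci), and 3 in each fit with 1 library left out. The H3K27Ac count of 38 became 3, 0 and 17 under the 3 scalings (1.44%, 0% and 17.3% of all peaks), 0 with no minimum, 14 in 1 fit of all 10 libraries, 17 with Prkca peaks left out and 5 over promoter peaks only. With 1 library left out it was between 0 and 61. The median H3K27Ac log2 fold change of 1.01 became 0.32, -0.10 and 0.71 under the 3 scalings and 0.82 with a pseudocount of 1, and lay between 0.77 and 1.16 with 1 library left out. The 6 called H3K27Ac loci became 0 under median centring, 0 scaled to reads in peaks and 0 with no minimum (0.906%, 0% and 0% of all loci), stayed at 6 centred on the weakest decile (46.1%), and were 0 to 7 with 1 library left out. The difference between marks gave 0 calls under every alternative run.

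Same-numbered libraries of one mark correlated at 0.0132 to 0.0288 in their deviations from the group means, and those of different marks at -0.0150 and -8.14e-04 (5 mM) and 0.193 and 0.0732 (25 mM), so the numbers were not treated as pairs. With the replicate block, H3K18La gave 33 called member peaks and 3 loci, H3K27Ac 17 peaks and 3 loci, and the difference between marks 0. The locus calls lost were Gnao1 in H3K18La (adjusted p = 0.0671, limma) and Gpr179 (0.0603), Prkca (0.172) and Rgs11 (0.0536) in H3K27Ac. Over the whole table, 36.4% of peaks and 54.2% of loci rose in H3K18La in this fit, and 10.9% and 6.01% in H3K27Ac.

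Several single log2 fold changes changed sign. Under median centring, H3K18La was -0.17 at Grm6 peak 1, -0.59 at Trpm1 peak 1, -0.29 at Cabp5 peak 3, -0.65 at Gnao1 peak 1, -0.15 at Gnao1 peak 2, -0.0038 at the Trpm1 locus and -0.15 at the Gnao1 locus. H3K27Ac was -0.57 at Trpm1 peak 8, -0.12 at Gpr179 peak 3, -0.013 at Prkca peak 23 and -0.40 at the Gnao1 locus, and the difference between marks was -0.065 at the Gpr179 locus. Scaled to reads in peaks, H3K18La was -0.45 at Grm6 peak 1, -0.80 at Trpm1 peak 1, -0.069 at Trpm1 peak 7, -0.33 at Cabp5 peak 3, -0.84 at Gnao1 peak 1, -0.22 at the Trpm1 locus and -0.34 at the Gnao1 locus. On that scale, H3K27Ac was -0.81 at Trpm1 peak 8, -0.61 at Gpr179 peak 3, -0.24 at Prkca peak 8, -0.48 at Prkca peak 23, -0.31 at Rgs11 peak 2, -0.26 at Gnao1 peak 1, -0.45 at Gnao1 peak 2, -0.03 at the Prkca locus and -0.46 at the Gnao1 locus. Centred on the weakest decile, H3K18La was -0.22 at Trpm1 peak 1 and -0.27 at Gnao1 peak 1, H3K27Ac was -0.18 at Trpm1 peak 8, and the difference between marks was 0.072 at the Gnao1 locus. That difference was 0.0066 at the Gnao1 locus with a pseudocount of 1 and -0.16 at the Gpr179 locus with voom. With 1 library left out, H3K18La ranged from -1.36 to 0.16 at Grm6 peak 3, from -0.85 to 0.62 at Prkca peak 13, from -0.61 to 0.025 at Prkca peak 20 and from -0.0037 to 0.40 at Gnao1 peak 1. H3K27Ac ranged from -0.25 to 0.48 at Trpm1 peak 8, from -0.030 to 2.91 at Prkca peak 13 and from -0.039 to 1.54 at Rgs11 peak 2. The difference between marks ranged from -0.28 to 0.46 at Trpm1 peak 8, from -0.074 to 1.31 at Gnao1 peak 1, from -0.29 to 0.16 at the Gnao1 locus and from -0.027 to 0.38 at the Gpr179 locus.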
